A study of Drosophila melanogaster with 10 samples.

Results

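The baseline transcriptome of wild-type larval neuroblasts was taken from the libraries labelled as wild-type larval central brain neuroblasts, which are 2 of the 10 samples of the series. The larvae carried inscuteable-Gal4, a driver active in neuroblasts, together with UAS-CD8::GFP, a membrane-bound green fluorescent protein. Wild type here means that the landing site VIE-260B of the VDRC collection was empty and held no RNA interference construct. Per the labels, eggs were laid over 24 h, the animals were kept at 29 °C for 5 days, and brains were dissected late in the third instar. Large cells with high GFP were collected by fluorescence-activated cell sorting, and polyA RNA was sequenced from strand-specific libraries. The other samples, from wild-type and med27 RNAi pupae, were not used, no group was compared with another, and no test was made. The labels number the larval libraries 1 and 2 and do not say whether they came from separate crosses, so the spread between them may be partly technical.

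Neuroblasts are the neural stem cells of the fly. They divide asymmetrically: each division renews the neuroblast and buds off a smaller daughter, either a ganglion mother cell, which divides once more into neurons or glia, or, in the type II lineages, an intermediate progenitor. Larval neuroblasts regrow to full size between divisions, which calls for continuous protein synthesis, and they pass through a series of temporal factors that set which progeny are made and when division ends.

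Levels are given in FPKM (fragments scaled by transcript length and by the size of the library), in which levels of different genes can be compared per length, and each pair of values is that of library 1 and then that of library 2. The tables list 14210 genes. A mean of at least 1 FPKM, taken here as the level that counts as present, was reached by 6817 genes, or 48.0%, of which 6682 reached it in both libraries. At least 10 FPKM was reached by 5030 genes, 100 FPKM by 1025 genes and 1000 FPKM by 118 genes. Counts past a level refer to the mean unless a library is named. The median over all genes was 0.612 and 0.677 FPKM, and 4494 genes were listed at 0 in both libraries. The confidence bounds of the tables imply about 19100000 and 18800000 fragments.

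**Figure D1:**
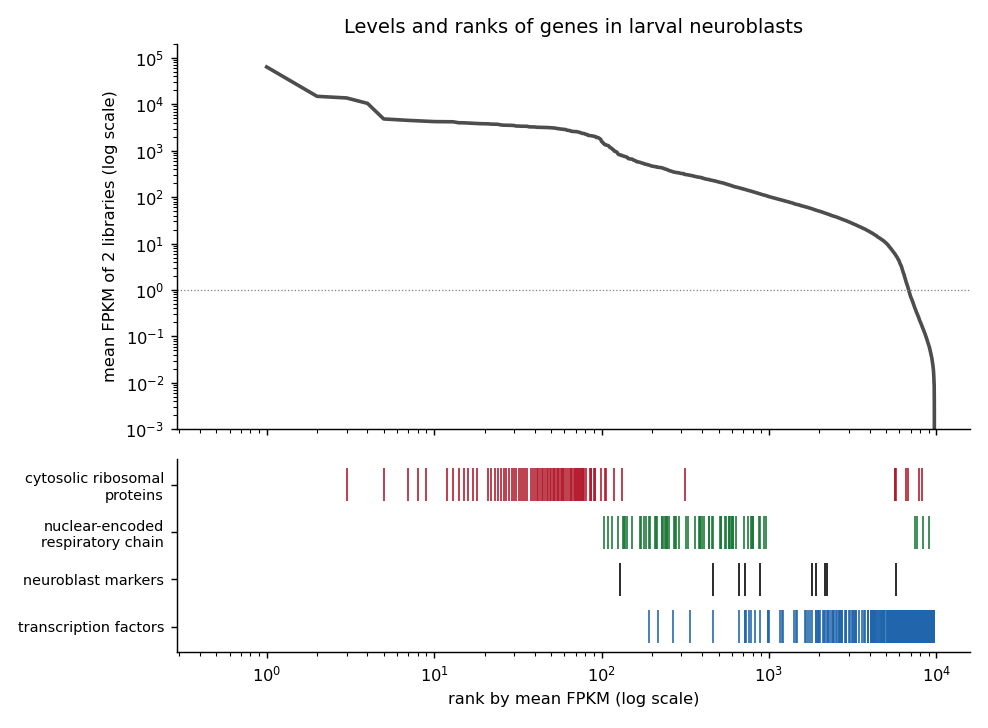
Mean FPKM of the 2 libraries against rank for all genes above 0 (upper panel, both axes logarithmic, dotted line at 1 FPKM), and the ranks of 4 classes of genes (lower panel, 1 tick per gene above 0). Cytosolic ribosomal proteins hold 76 of the 100 highest ranks. Nuclear-encoded respiratory chain genes begin at rank 103 and the listed transcription factors at rank 193.

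The label was set beside marker genes. The cells were sorted through inscuteable-Gal4, so the presence of the marker insc is not independent of the sort. The lists were also chosen with earlier results of these data known, so the counts describe the libraries and are no independent check. All 10 neuroblast markers were present, against 48.0% of all genes, and 9 exceeded 10 FPKM. Miranda (mira), the adaptor that carries fate determinants to the basal side of the dividing neuroblast, was the highest at 815 and 823 FPKM (rank 129). The transcriptional cofactor gene nab followed with 212 and 243 FPKM. The Hes-type repressor deadpan (dpn), a neuroblast self-renewal factor, had 165 and 150.4 FPKM (rank 666). The Snail-family factor worniu (wor) had 156 and 138 FPKM (rank 717). These 4 genes exceeded 100 FPKM in each library.

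So did grainy head (grh), a factor of late neuroblasts, with 133 and 102 FPKM. The proneural relative asense (ase), which is expressed in type I neuroblasts and absent from type II neuroblasts, had 57.7 and 47.7 FPKM, and the spindle-orienting adaptor inscuteable (insc) had 53.6 and 58.7 FPKM. The zinc finger gene klumpfuss (klu) had 49 and 41.3 FPKM and SoxN had 50.6 and 36.8 FPKM. In both libraries these genes lay above the median of the genes present, 23.6 and 24.0 FPKM. Only castor (cas), an early temporal factor, fell below 10 FPKM, with 3.69 and 7.2 FPKM. By position, mira overlaps Hs6st and insc overlaps sktl.

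Markers of the cells that neuroblasts make were lower. Of the 7 markers of ganglion mother cells and new neurons, 7 were present and 3 exceeded 10 FPKM. Prospero (pros), whose RNA neuroblasts make and whose protein they hand to the daughter, had 60.9 and 54.7 FPKM, the bHLH gene tap had 25 and 28.3 FPKM, and elav, the pan-neuronal RNA-binding protein, had 15.3 and 11.8 FPKM. The others were nerfin-1 with 7.83 and 9.66 FPKM, fne with 8.64 and 6.73 FPKM, dap with 3.03 and 6.63 FPKM and Hey with 1.32 and 1.63 FPKM. The median of this list was 8.64 and 9.66 FPKM, against 95.5 and 80.1 FPKM for the neuroblast markers.

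Of 12 markers of type II neuroblasts and intermediate progenitors, 11 were present, with 3 above 10 FPKM. Tailless (tll), a nuclear receptor of type II neuroblasts, had 16.9 and 16.7 FPKM, slp2 had 12 and 11.4 FPKM and Dichaete (D) had 12.8 and 10.1 FPKM. The temporal factor of intermediate progenitors eyeless (ey) had 7.94 and 7.13 FPKM, slp1 had 4.67 and 6.7 FPKM, and opa had 2.3 and 3.47 FPKM. Pointed (pnt), btd, Sp1 and erm, which act in the type II lineage, had 3.6 and 3.39 FPKM, 2.5 and 2.61 FPKM, 5.9 and 4.44 FPKM and 2.49 and 3.54 FPKM. The zinc finger gene ham had 0.663 and 2.01 FPKM, and bsh was the lowest with 0.217 and 0.675 FPKM.

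Of 23 neuron markers, 8 were present, or 34.8%, below the share of all genes. The highest were the syntaxin gene Syx1A with 21.7 and 13.5 FPKM, which overlaps 4EHP by position, and elav, which overlaps arg. Appl had 8.42 and 7.5 FPKM, while cac, n-syb, nrv3 and cpx had 2.36 and 2.01 FPKM, 1.08 and 2.08 FPKM, 1.04 and 1.88 FPKM and 1.49 and 1.08 FPKM. Other genes of synaptic transmission were lower: the vesicle protein gene Syt1 had 0.756 and 0.513 FPKM, the active zone gene brp 0.133 and 0.173 FPKM, Syn 0.155 and 0.244 FPKM, Rab3 0.451 and 0.506 FPKM and Snap25 1.12 and 0 FPKM. Genes that define a transmitter lay below 1 FPKM, with 0.568 and 0.59 FPKM for VGlut, 0.326 and 0.303 FPKM for VAChT, 0.0959 and 0.17 FPKM for Cha, 0.0589 and 0.284 FPKM for Gad1, 0 and 0.105 FPKM for ple and 0.0687 and 0.0234 FPKM for Trh. The channel and receptor genes para, Sh and Rdl had 0.035 and 0.0685 FPKM, 0.116 and 0.363 FPKM and 0.192 and 0.317 FPKM, and the microtubule protein gene futsch had 0.178 and 0.15 FPKM. The markers summed to 64.2 and 50.4 FPKM, of which Syx1A, elav, Appl and fne held most.

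Of 18 glia markers, 7 were present. The sodium pump subunit gene nrv2 had 116 and 97.5 FPKM and the glutamate transporter gene Eaat1 75.6 and 61.4 FPKM, at ranks 968 and 1502, and Tret1-1, loco and drpr had 19.3 and 24.8 FPKM, 17.7 and 17.2 FPKM and 10.7 and 11 FPKM. Indy and bnb had 3.54 and 3.41 FPKM and 4.03 and 2.47 FPKM. By position, Tret1-1 overlaps Roc2 and bnb overlaps Pk17E. The glial master regulator genes were near 0, with 0.0992 and 0.255 FPKM for repo, 0.742 and 0.945 FPKM for gcm and 0.161 and 0.0921 FPKM for gcm2. So were Gli, Eaat2, wrapper and alrm with 0.418 and 0.905 FPKM, 0.371 and 0.351 FPKM, 0.356 and 0.285 FPKM and 0.511 and 0.0372 FPKM, and Gs2, CG3168, axo and moody with 0.205 and 0.202 FPKM, 0.22 and 0.0347 FPKM, 0.0401 and 0.062 FPKM and 0.0903 and 0 FPKM. The markers summed to 250.2 and 221 FPKM. In a bulk library, a few cells of another type and a low level in every neuroblast cannot be told apart, and the part of glia in these values was not tested.

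Most markers of haemocytes, fat body and muscle lay below 1 FPKM. Of 11 haemocyte markers, 1 was present, the scavenger receptor gene crq with 37.6 and 31.6 FPKM, which overlaps the present gene ex by position. Hml and srp had 0.055 and 0.138 FPKM and 0.113 and 0.0886 FPKM. Of 13 fat body markers, 2 were present, the fatty acid desaturase gene desat1, which many cells use, with 84.1 and 84.3 FPKM, and the serum protein gene Lsp1gamma with 2.02 and 2.2 FPKM; 6 were listed at 0 in both libraries. None of 14 muscle markers was present, the highest being Act57B with 0.48 and 0.431 FPKM. Of the 14 markers of imaginal discs and the optic lobe, 10 were present, or 71.4%, above the 48.0% of all genes. Only Optix exceeded 10 FPKM, with 11 and 11.6 FPKM. The genes scro, eya and dac followed with 6.97 and 6.02 FPKM, 5.56 and 6.63 FPKM and 5.02 and 4.56 FPKM, and vg was the lowest with 0.257 and 0.331 FPKM. Of 6 markers of trachea and epidermis, Cht2 alone was present, with 4.2 and 7.43 FPKM, and it overlaps CG13921 by position.

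**Figure D2:**
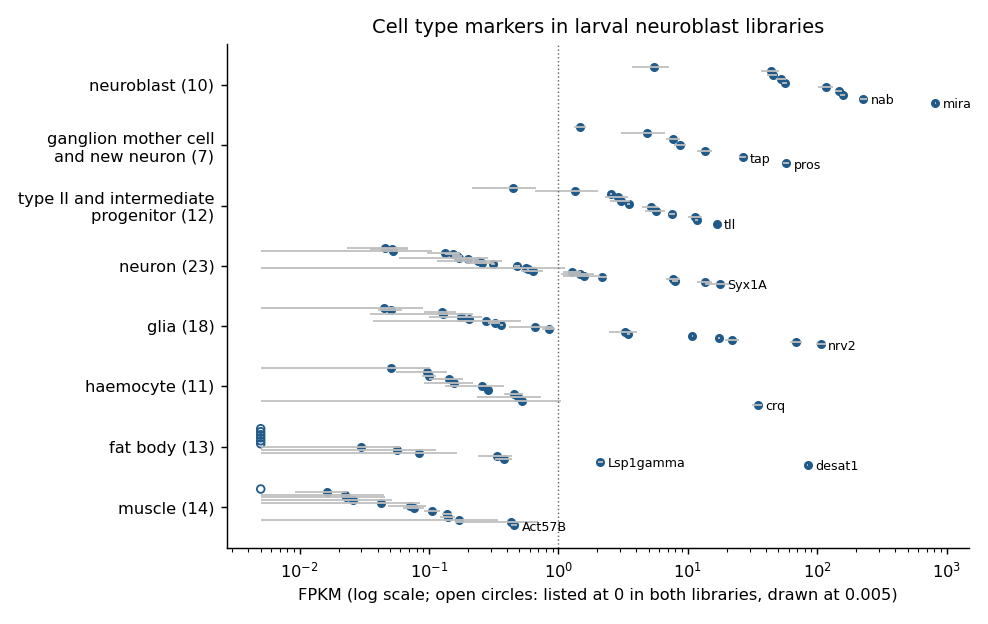
Mean FPKM of each marker by list (points, log axis, number of markers in parentheses), with grey lines from the lower to the higher library and the 1 FPKM level as a dotted line. All 10 neuroblast markers lie above 1 FPKM, while 8 of 23 neuron markers, 7 of 18 glia markers and 0 of 14 muscle markers do. Markers of imaginal discs and the optic lobe, of the germline and of trachea and epidermis are not drawn.

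The RNAs with the highest FPKM were short. CR34335, a noncoding gene on the X chromosome (positions 3439895 to 3440143 in the tables), had 53728 and 74311 FPKM and took 7.05% and 9.13% of the summed FPKM. It was followed by pncr002:3R, annotated as a long noncoding RNA, with 15451 and 14349 FPKM, by RpL41 with 13656 and 13835 FPKM and by the noncoding CR40469 with 9545 and 11467 FPKM. The median transcript lengths of these 4 genes are 249, 505, 320 and 214 nt, and RpL41 overlaps NaCP60E by position. FPKM divides by length, and how the length correction bears on such short RNAs was not tested. The order by fragments differs. The bounds imply 153018 and 201607 fragments for CR34335 and 18907 and 21123 for CR40469. For Ef1alpha48D, at rank 11, they imply 193553 and 178170 fragments. After the 4 highest genes the FPKM curve fell to a plateau: ranks 5 to 25 lay between 4536 and 5161 FPKM for RpL39 and 3349 and 3863 FPKM for RpL36.

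Of the 25 highest genes, 17 encode cytosolic ribosomal proteins, and 3 are the noncoding RNAs above. The ribosomal ones are RpL41, RpL39, RpL23, RpLP1, RpL10, RpL27A, RpL29, sta, RpLP2, RpS2, RpL15, RpL32, RpS29, RpS23, RpL21, RpS3A and RpL36. The rest of the 25 are the tubulin genes alphaTub84B with 4497 and 4816 FPKM and betaTub56D with 4114 and 4389 FPKM, the translation elongation factor gene Ef1alpha48D with 4382 and 4079.6 FPKM, the small heat shock protein gene Hsp23 with 3902 and 3763 FPKM and awd, a nucleoside diphosphate kinase gene, with 3553 and 4080.4 FPKM. The 10 highest genes together held 15.5% and 17.5% of the summed FPKM, the 100 highest 48.9% and 50.8% and the 1000 highest 79.8% and 80.6%. To reach 50% took 106 genes in library 1 and 97 genes in library 2.

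Cytosolic ribosomal proteins were the dominant class. Of 89 listed genes, 86 were present and 79 exceeded 1000 FPKM, and they made up 76 of the 100 highest genes. They held 31.8% and 32.4% of the summed FPKM (32.1% ± 0.404, SD, n = 2), with a median of 2949 and 3169 FPKM. The class had no middle: 81 genes lay above 100 FPKM and 8 below 10 FPKM. Of these 8, 7 are copies of a gene whose other copy was high. They include RpL10Aa, listed at 0 beside RpL10Ab with 3334 and 3724 FPKM, and the pairs given below. The exception, singled out after its value was seen, was RpS6, the single-copy gene of the ribosomal protein phosphorylated by S6 kinase, with 3.18 and 7.9 FPKM. Every cell is known to need it, and the cause of its low value was not tested.

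Most other genes of the translation machinery were present. Of 41 translation factors, 37 were present, 3 were listed at 0 in both libraries and 8 exceeded 1000 FPKM, led by Ef1alpha48D, eIF-5A with 3252 and 3301 FPKM, Ef2b, the ribosome translocase, with 2709 and 2715 FPKM, and Tctp with 2147 and 2131 FPKM. All 20 tRNA synthetases were present, with a median of 83.7 and 86.2 FPKM. They ran from Aats-lys with 286 and 299 FPKM to Aats-met, named MetRS-m in current tables, with 14.5 and 16.1 FPKM. All 21 genes of the nucleolus and ribosome biogenesis were present, led by the nucleolar protein gene mod with 597 and 544 FPKM, hoip with 359.9 and 410.5 FPKM, Nop56 with 306 and 345 FPKM and the pseudouridine synthase gene Nop60B with 294 and 316 FPKM. The lowest was pes with 8.74 and 6.77 FPKM. The proteasome, which degrades proteins, had 31 of 42 genes present and 8 listed at 0 in both libraries, with a median of 205 and 219 FPKM, and its highest members were Prosbeta7 with 527 and 557 FPKM and Pros29 with 488 and 540.4 FPKM.

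Heat shock proteins and chaperones held 2.41% and 2.29% of the summed FPKM, with 33 of 38 genes present. The highest were Hsp23 with 3902 and 3763 FPKM, the constitutive Hsp70-type chaperone gene Hsc70-4 with 2737 and 2824 FPKM, the small heat shock protein gene Hsp27 with 2458 and 2104 FPKM and the Hsp90 gene Hsp83 with 1872 and 1999.5 FPKM. The heat-inducible Hsp70 copies, named after their values were seen, were far lower: Hsp70Bb had 136 and 134 FPKM, the highest of them, and Hsp70Aa 17.2 and 17.2 FPKM. These copies are nearly identical, so their separate values are uncertain. The animals were reared at 29 °C and cells were sorted, and the part of these steps in the chaperone levels was not tested.

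**Figure D3:**
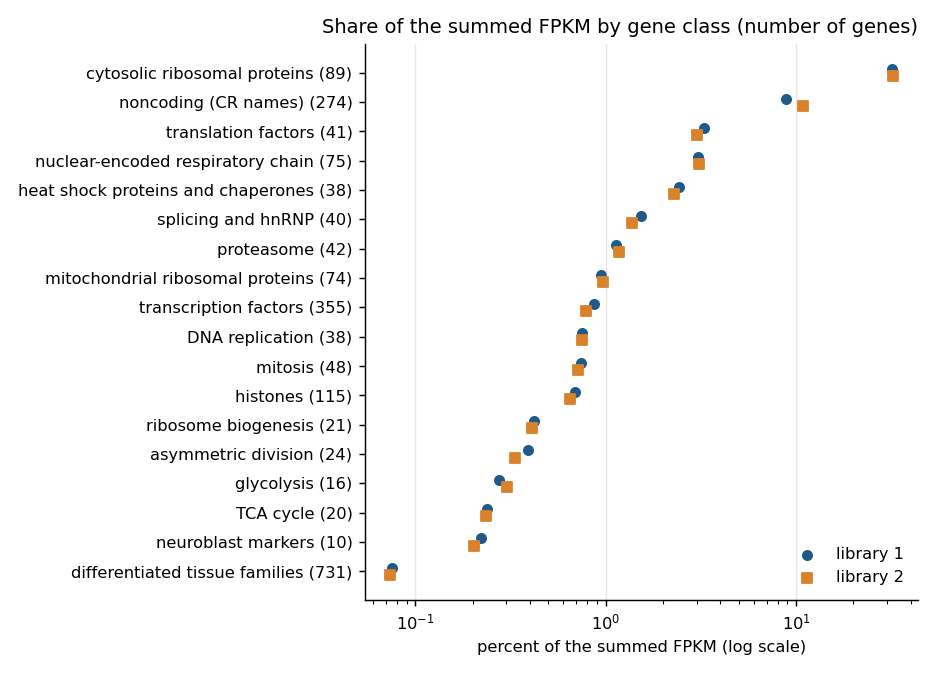
Percent of the summed FPKM held by each class of genes in library 1 (circles) and library 2 (squares), on a log axis, with the number of genes in parentheses. Cytosolic ribosomal proteins held 31.8% and 32.4%, and 731 genes of differentiated tissues together held 0.0759% and 0.0739%.

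Nuclear-encoded genes of the mitochondrial respiratory chain fell into a high group and a small group near 0. Of 75 genes, 65 were present, and these 65 all exceeded 100 FPKM in the mean. The other 10 lay below 1 FPKM, and 6 of them were listed at 0 in both libraries. By complex, the counts present were 31 of 36 for complex I, 4 of 4 for complex II, 10 of 11 for complex III with cytochrome c, 8 of 10 for complex IV and 12 of 14 for complex V, the ATP synthase. The median level was lowest in complex I, with 169.6 and 190.1 FPKM, and highest in complex V, with 499.9 and 504 FPKM. The highest members were CG1746, the ATP synthase ring subunit, with 1442 and 1464 FPKM and ATPsyn-beta with 1341 and 1251 FPKM in complex V, CG14482 with 1014 and 1143 FPKM in complex III, CG9603 with 837 and 839 FPKM in complex IV, CG10320 with 314 and 378 FPKM in complex I and SdhC with 306 and 394 FPKM in complex II.

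The 13 protein genes of the mitochondrial genome were all listed at 0 in both libraries. Their proteins belong to the same complexes, so no level is drawn from these zeros. All 74 mitochondrial ribosomal protein genes were present, from mRpL53 with 289 and 282 FPKM to mRpS5 with 34.8 and 28.6 FPKM.

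Of the 16 glycolysis genes, 12 were present, with a median of 104 and 125 FPKM. The highest were enolase (Eno) with 422 and 457 FPKM, the glyceraldehyde-3-phosphate dehydrogenase gene Gapdh2 with 334 and 421 FPKM, pyruvate kinase (PyK) with 251 and 309.8 FPKM and Gapdh1 with 216 and 296 FPKM. Of the enzyme genes of the first steps, all named after their values were seen, hexokinase (Hex-A) had 30.3 and 29 FPKM, Pgi 96.3 and 111 FPKM, phosphofructokinase (Pfk) 28 and 35.5 FPKM and aldolase (Ald) 272 and 222 FPKM. The lowest of those present was lactate dehydrogenase (ImpL3), which turns pyruvate to lactate, with 10.9 and 18.6 FPKM, at rank 4372. Of the 20 genes of the tricarboxylic acid cycle and pyruvate dehydrogenase, 17 were present, led by CG5214 with 232 and 245 FPKM, CG11876, a pyruvate dehydrogenase subunit, with 204 and 225 FPKM, the aconitase gene Acon with 183 and 193 FPKM and SdhA with 169.8 and 175 FPKM.

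All 7 pentose phosphate genes were present: the transketolase CG8036 had 381 and 433 FPKM and the transaldolase Tal 239.7 and 275 FPKM, in the branch without oxidation, while the oxidative enzyme genes Zw and Pgd had 12.7 and 16.6 FPKM and 7.93 and 10.7 FPKM. For purine synthesis, 9 of 10 genes were present, with a median of 43.6 and 48.4 FPKM and ras, the inosine monophosphate dehydrogenase gene, highest in the mean with 76.6 and 90.3 FPKM. In library 1, bur with 86.4 and 75 FPKM and ade3 with 76.8 and 89.1 FPKM lay above it. The vacuolar proton pump had 19 of 33 genes present, a set in which many subunits have tissue-restricted copies, led by VhaM9.7-b with 164 and 165 FPKM.

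Genes of the division machinery were present throughout the lists counted. All 38 DNA replication genes and all 48 mitosis genes exceeded 10 FPKM, a level that 35.4% of all genes reached. In replication, mus209, the PCNA sliding clamp, had 952 and 1043 FPKM, and the helicase subunit genes Mcm7, Mcm3 and Mcm2 had 438 and 492 FPKM, 302 and 337 FPKM and 288 and 324 FPKM. The lowest, Psf3, still had 25 and 26.4 FPKM. In mitosis, the highest were cyclin A (CycA) with 567 and 582 FPKM, cyclin B (CycB) with 333 and 349 FPKM, CycB3 with 334 and 339 FPKM and the kinase gene polo with 328 and 329 FPKM, and the lowest was the separase gene Sse with 13.7 and 13.6 FPKM. Outside the count, since their listed spelling differs, the condensin gene Cap-G had 33.8 and 35.8 FPKM and the centriole gene Sas-4 22.4 and 25 FPKM.

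All 11 genes that control entry into S phase were present, at lower levels. The E2F partner Dp had 137 and 139 FPKM, cyclin E (CycE) 114 and 88.9 FPKM, E2f 79.5 and 60.7 FPKM and ago, which marks cyclin E for degradation, 69.3 and 64.4 FPKM. The cyclin-dependent kinase inhibitor dacapo (dap), which stops division in new neurons, was the lowest with 3.03 and 6.63 FPKM. Both values of CycE lay more than 10 times above both values of dap.

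The replication-dependent histone genes were almost all at or near 0. Of 111 copies in the histone repeats, 105 were listed at 0 in both libraries, and His2B:CG17949 was the sole copy present, with 17.1 and 11.6 FPKM. Their RNAs normally lack a polyA tail, and their copies are nearly identical, so no level is drawn from these values. Outside the repeats, the replication-independent histone genes were high, with 1976 and 2200.0 FPKM for His3.3A, 1395 and 1345 FPKM for His4r, 1194 and 1098 FPKM for His2Av and 647 and 604 FPKM for His3.3B.

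All 24 genes counted for the machinery of asymmetric division exceeded 10 FPKM, with a median of 68.1 and 68 FPKM. Besides mira, the highest were stau, an RNA-binding cargo of Miranda, with 457 and 382 FPKM, the G protein gamma subunit gene Ggamma1 with 266 and 233 FPKM and sqh, the myosin regulatory light chain gene, with 145 and 161 FPKM. The lowest was the apical scaffold bazooka (baz) with 15.8 and 15.2 FPKM. Outside the count, since its listed name differs, the spindle-orienting gene pins, listed as raps, had 15.3 and 15.7 FPKM. Named after their values were seen, the fate determinants numb and brat had 104 and 92.3 FPKM and 111 and 85.1 FPKM, and the apical polarity genes par-6 and aPKC had 51.4 and 41.5 FPKM and 31.9 and 26.1 FPKM. The list shares mira and insc with the neuroblast markers and loco with the glia markers.

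Notch signalling maintains type II neuroblasts, and its target genes include Hes-type repressors of the E(spl) complex. Of 26 pathway genes, 23 were present. The target HLHmgamma was the highest with 139.8 and 153 FPKM, followed by the gamma-secretase gene Psn with 94.2 and 112 FPKM, the ubiquitin ligase gene neur with 62.6 and 47.9 FPKM and nct, another gamma-secretase gene, with 50.4 and 51.1 FPKM. Named after their values were seen, the receptor gene N had 40.8 and 32.5 FPKM and the ligand gene Dl 22.3 and 16 FPKM, while the other ligand gene, Ser, had 0.122 and 0.309 FPKM. Members of the E(spl) complex ran from HLHmgamma through E(spl) with 48.6 and 50.1 FPKM and HLHmbeta with 23.2 and 29.9 FPKM to HLHm5 with 0.485 and 0 FPKM, with m1 listed at 0.

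Transcription factors were less abundant than the enzymes and structural genes above, and more often present than genes at large. Of 355 genes in 11 families, 211 were present, or 59.4%, against 48.0% of all genes. They held 0.87% and 0.791% of the summed FPKM. Their share fell with level: 3.10% of genes at 1 FPKM or more, 2.11% at 10 FPKM, 1.56% at 100 FPKM, and 0 of 118 genes at 1000 FPKM. These shares cover the listed genes only, and the HMG-box gene HmgD, left out of the families, exceeded 1000 FPKM in both libraries. Of the 355 listed genes, 16 had a mean above 100 FPKM: TfIIA-S, crc, mod(mdg4), lola, nab, dpn, wor, HLHmgamma, Iswi, Dp, BEAF-32, TfIIA-L, grh, Xbp1, TfIIB and Myb. The value of Myb in library 2 is marked as a failed estimate. The neuroblast regulators among them are nab, dpn, wor, HLHmgamma and grh; others act in every cell, such as TfIIA-S, TfIIA-L and TfIIB, which help RNA polymerase II start.

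The most frequently present families were the signal-responsive and general factors, with 38 of 41, and the bZIP factors, with 14 of 19. Among the first, TfIIA-S had 435 and 538 FPKM, the chromatin remodeller gene Iswi 143 and 146 FPKM, Dp 137 and 139 FPKM and TfIIA-L 122 and 131 FPKM. Among the bZIP factors, crc, the fly ATF4, had 475 and 409 FPKM, the highest mean of the 11 families after TfIIA-S. Xbp1, of the unfolded protein response, had 105 and 106 FPKM, maf-S 96 and 81.2 FPKM and CG18619, named REPTOR-BP in current tables, 78 and 94.6 FPKM.

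Of 78 zinc finger, temporal and patterning factors, 49 were present. The BTB-domain genes mod(mdg4), an insulator component, and lola had 326 and 375 FPKM and 313 and 280.3 FPKM, ahead of nab and wor, whose values stand with the markers. The locus of mod(mdg4) overlaps several small present genes, so its value is uncertain. Of 53 bHLH factors, 31 were present, and the highest were dpn, HLHmgamma, ase and HLH106, the fly SREBP, with 49.1 and 52.5 FPKM. The genes dpn and HLHmgamma lay above 100 FPKM and the other bHLH factors below it in both libraries.

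Of the 12 Sox and HMG-box factors listed, 8 were present, led by the co-repressor gene Dsp1 with 80.5 and 64.5 FPKM. Next came SoxN, bbx with 12.7 and 12.8 FPKM and D. The list left out HmgD, another HMG-box gene, which was higher with 1899 and 1795 FPKM (rank 97). Of 17 forkhead factors, 11 were present, led by jumu with 49.4 and 43.9 FPKM, fd68A, the current FoxK, with 26.9 and 19.8 FPKM, slp2 and foxo, the target of insulin signalling, with 7.51 and 6.01 FPKM. The 8 ETS factors had 4 present: Ets97D with 17.3 and 17.4 FPKM, aop with 5.69 and 3.83 FPKM, pnt and Ets21C with 2.16 and 2.29 FPKM. Of 19 GATA, Runx and T-box factors, 7 were present. There the Runx cofactor gene Bgb had 61.8 and 78.7 FPKM, well above GATAd with 7.51 and 6.34 FPKM, followed by mid with 6.57 and 4.42 FPKM and Bro with 5.23 and 4.74 FPKM.

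Of 78 homeodomain factors, many of which mark single lineages or neurons, 31 were present, or 39.7%, and 6 exceeded 10 FPKM. The highest was pros, followed by vvl with 19.1 and 13.1 FPKM, toy with 14 and 9.83 FPKM and ct with 12.6 and 10.2 FPKM. A factor made in a few lineages at a high level and a factor made in all at a low level give the same value in a pool of neuroblasts. Among 10 Hox genes and cofactors, 4 were present: the cofactor genes exd and hth had 67.5 and 54.9 FPKM and 36.8 and 26 FPKM, Antp had 12.5 and 7.47 FPKM and Scr had 1.54 and 1.12 FPKM. The other 6, Ubx and abd-A among them, lay below 1 FPKM in the mean, the lowest being pb with 0.174 and 0.39 FPKM.

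**Figure D4:**
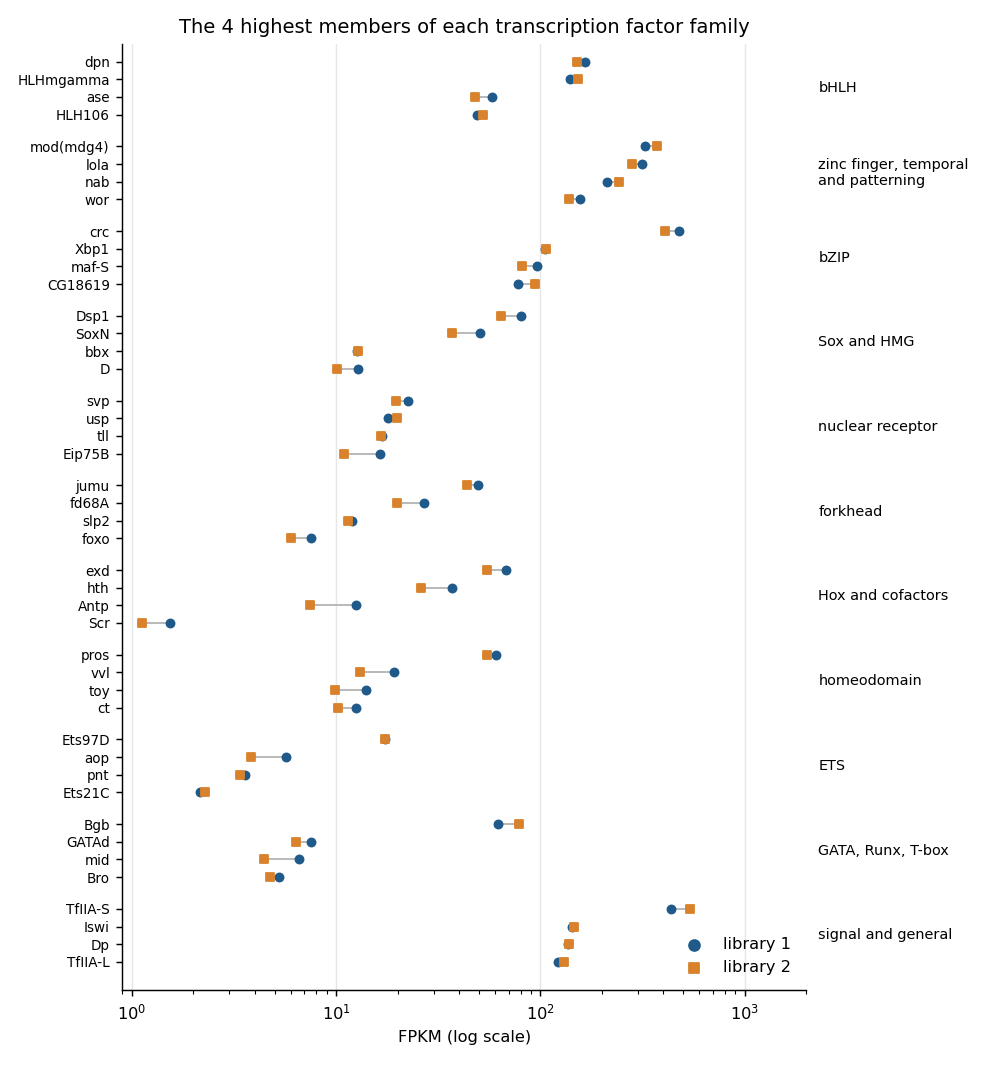
FPKM of the 4 highest members of each of 11 transcription factor families in library 1 (circles) and library 2 (squares), joined by grey lines, on a log axis. Members of the zinc finger, bZIP, bHLH and general families exceed 100 FPKM in both libraries, and no ETS or nuclear receptor gene reaches 25 FPKM.

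Nuclear receptors include the sensors of ecdysone, the steroid that times metamorphosis. Of 21, 14 were present and 4 had a mean above 10 FPKM. Seven-up (svp), which acts in the temporal series, had 22.5 and 19.7 FPKM, ultraspiracle (usp), the partner of the ecdysone receptor, 17.9 and 19.9 FPKM, tll 16.9 and 16.7 FPKM, and Eip75B, an early ecdysone target, 16.4 and 10.9 FPKM. The following were named after their values were seen. The receptor gene EcR had 7.16 and 6.35 FPKM, less than usp in both libraries, ftz-f1 10.4 and 6.83 FPKM, Hr39 9.07 and 8.11 FPKM and ERR, the estrogen-related receptor gene, 8.07 and 10.6 FPKM. Eip78C, Hr46 and Hr38 were near or at 0, with 0.247 and 0.128 FPKM, 0.137 and 0.0582 FPKM and 0 and 0 FPKM.

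Of 17 temporal factors, 11 were present. CG17838, the current Syncrip (Syp), an RNA-binding protein of late neuroblasts, was the highest with 1695 and 998 FPKM (rank 106). It overlaps CG31195 and Takl1 by position, and its libraries differed by 0.76 on the log2 scale. Next came grh, then Eip93F, another late factor, with 34.9 and 22.1 FPKM, and svp.

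The other temporal factors were named after their values were seen. Imp, an RNA-binding protein of young neuroblasts that acts opposite to Syncrip, had 2.09 and 1.93 FPKM, and chinmo, a factor of the same early window, had 7.67 and 5.69 FPKM. Broad (br), a late factor, had 18 and 14.9 FPKM, and dan and danr had 20.7 and 20.1 FPKM and 16.8 and 17.9 FPKM. Of the embryonic series, grh and cas were present, as given with the markers, and the rest were at or near 0: hunchback (hb) and pdm2 were listed at 0 in both libraries, Kr had 0 and 0.0524 FPKM and nub 0.0353 and 0.181 FPKM. The early heterochronic genes mamo and lin-28 had 0.374 and 0.506 FPKM and 0 and 0.184 FPKM.

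Chromatin and RNA regulators were broadly present. All 29 Mediator genes, of the complex that links transcription factors to RNA polymerase II, exceeded 10 FPKM and none had a mean of 100 FPKM. MED18 led with 85.8 and 92.8 FPKM, then MED7, MED22 and MED11 with 80.8 and 85.4 FPKM, 82.6 and 83.1 FPKM and 77.4 and 83.7 FPKM, and the kinase-module gene skd was the lowest with 12.2 and 10.6 FPKM. MED27, the gene that the series targets in its pupae, had 31.7 and 38.3 FPKM. All 10 SWI/SNF remodeller genes exceeded 10 FPKM, from Bap60 with 176 and 202 FPKM to osa with 26.5 and 22.9 FPKM. Of 20 Polycomb-group genes, 19 were present, with Caf1, a histone chaperone subunit shared by many complexes, at 413 and 445 FPKM, then E(z), the histone methyltransferase gene, at 53.3 and 52.6 FPKM, pho at 58.9 and 42.7 FPKM and Sce at 43.8 and 53.6 FPKM. Su(z)2 was the exception with 0.547 and 0.495 FPKM.

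Of 40 splicing and hnRNP genes all were present, 31 above 100 FPKM. Syncrip led, followed by SmG with 695 and 729 FPKM, SmE with 637 and 727 FPKM and the SR protein gene B52 with 643 and 709.9 FPKM, and Imp was the lowest of the list. The value of B52 in library 1 is marked in the table as a failed estimate and its lower bound is 0. The dosage compensation complex, which acts on the male X chromosome, had all 8 genes present. Its noncoding RNA roX1 had 676 and 541 FPKM and CG1832 55.5 and 48.6 FPKM, ahead of the helicase gene mle with 31.6 and 33 FPKM and the acetyltransferase gene mof with 30.5 and 30.3 FPKM. The other noncoding RNA, roX2, was the lowest with 7.28 and 5.97 FPKM. The sex of the larvae is not among the labels used here.

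Of 22 small RNA genes, 20 were present. Dcr-2, which makes small interfering RNAs, had 325 and 229 FPKM and overlaps Rab4 by position. AGO2, loqs and r2d2 followed with 60.8 and 65.9 FPKM, 61.1 and 59.6 FPKM and 50.3 and 56.1 FPKM. Dcr-1, which makes microRNAs, was named after its value was seen and had 14.7 and 14.4 FPKM, below Dcr-2 in both libraries. The piRNA effector genes piwi and AGO3 were the lowest with 0.42 and 0.986 FPKM and 0.134 and 0.0989 FPKM. Other genes of the piRNA pathway were present: aub, as given below, and armi, named after its value was seen, with 35.7 and 35.5 FPKM. Among 11 germline genes 6 were present, or 54.5%, against 48.0% of all genes. The highest were tud with 33.3 and 24.3 FPKM and vas with 9.21 and 11.5 FPKM, then aub with 7.74 and 9.89 FPKM. Next came bam with 3.35 and 3.06 FPKM, and osk was listed at 0. The locus of vas overlaps the present gene vig.

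Gene families that serve differentiated tissues were nearly silent. Of 731 genes in 18 families, 57 were present, or 7.8%, against 48.0% of all genes, and 480 were listed at 0 in both libraries. Only 11 had a mean above 10 FPKM and none a mean above 100 FPKM. Of the 57 genes, 12 overlap another present gene by position, and their reads cannot be assigned with certainty. The 3 families with no member present were the Osiris genes of the cuticle, the gut proteases of the Jonah and trypsin type, and the accessory gland proteins.

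Among chemosensory families, 3 of 60 odorant receptors were present, the highest Or42b with 2.8 and 4.0 FPKM and Or67d with 2.17 and 3.33 FPKM. Of 62 gustatory receptors 1 was present, Gr47b with 2.06 and 2.0 FPKM, followed by Gr61a with 0.724 and 0.908 FPKM. Of 59 ionotropic receptors 2 were, Ir76a with 4.65 and 6.66 FPKM and Ir62a with 1.11 and 1.23 FPKM, both overlapping present genes. Of 44 odorant-binding proteins 3 were, and Obp44a reached 41 and 63 FPKM and Obp99a 12.4 and 17.2 FPKM. Obp44a overlaps Pabp2.

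Cuticle proteins had 5 of 122 present, and one of them, Cpr76Bc, had 109 and 79.9 FPKM, the highest value of all 18 families, with Cpr66D next at 10.4 and 10.6 FPKM. No other present gene overlaps Cpr76Bc by position. The testis-type genes had 10 of 28 present, the largest share of the 18 families, led by Taf12L with 69.2 and 72.7 FPKM and Mst85C with 40.1 and 39.9 FPKM. Cytochrome P450 genes, which oxidise steroids and toxins, had 6 of 81 present, led by Cyp6u1, which overlaps a present gene, with 12.7 and 13.5 FPKM and Cyp12c1 with 8.55 and 5.81 FPKM. Of the 21 antimicrobial peptides 4 were present, all of them cecropins, led by CecA1 with 26 and 23 FPKM and CecA2 with 6.47 and 4.75 FPKM. Of the 7 yolk and serum proteins Lsp1gamma alone was present, and Yp3 had 0.441 and 0.323 FPKM. Of 15 eggshell genes Cp18 was, with 1.62 and 2.37 FPKM, and Vm26Ab had 0 and 0.418 FPKM.

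Neuronal effector families were also low. Of 33 neuropeptide genes 8 were present, led by IFa with 60.3 and 35.3 FPKM, which overlaps Start1, and ETH, the ecdysis-triggering hormone gene, with 18.5 and 19.5 FPKM. Of 40 transmitter receptors 4 were present, with GluRIIB at 5.94 and 5.3 FPKM and GluRIIA at 4.33 and 3.32 FPKM. Of 20 voltage-gated channels 3 were, with sei at 6.34 and 5.2 FPKM and NaCP60E at 4.46 and 3.46 FPKM, both overlapping present genes. Of 17 phototransduction genes 2 were, norpA with 4.12 and 3.62 FPKM and Rh4, which overlaps sina and CG13029, with 3.11 and 2.37 FPKM.

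In most of the sets of paralogues listed here, 1 member held nearly all of the FPKM. The sets were chosen with earlier results of these data known, and several include a copy of testis or muscle. Some, such as the Snail family and the sets of RpL24 and RpL7, join related genes and not copies of 1 protein. No rule for paralogues at large is drawn from them. Of 27 sets of paralogues, 26 had a present member, and in 18 the highest member held at least 95% of the set's FPKM. Tubulins, actins and some other sets have closely similar coding sequences, so the division between their members is uncertain. The ubiquitous actin gene Act5C had 2078 and 1779 FPKM and Act42A 748 and 746 FPKM, a share of 72.1% for Act5C, while the muscle actins Act57B, Act87E, Act88F and Act79B had at most 0.48 FPKM in either library. The lamin gene Lam had 321 and 293 FPKM and LamC, which other tissues use as they differentiate, 0.199 and 0 FPKM. Cyt-c-p had 229 and 232 FPKM and the testis copy Cyt-c-d 0 and 0.185 FPKM. Pglym78 and Hex-A were present, and Pglym87, Hex-C, Hex-t1 and Hex-t2 were listed at 0. Of the tubulins, alphaTub84B held 93.5% of the alpha set, alphaTub84D had 312 and 339 FPKM, and alphaTub67C and alphaTub85E lay below 0.5 FPKM. In the beta set betaTub56D held 95.8% and betaTub60D had 178 and 189.9 FPKM, with betaTub97EF and betaTub85D below 0.5 FPKM.

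Ribosomal protein pairs followed the same pattern. RpS5a had 2621 and 2634 FPKM and RpS5b 5.3 and 6.71 FPKM; RpS19a had 2845 and 3169 FPKM and RpS19b 6.87 and 4.86 FPKM. RpS10b had 1948 and 2135 FPKM and RpS10a 0.864 and 1.56 FPKM, RpS28b 2972 and 2898 FPKM and RpS28a 0 and 2.94 FPKM. RpL22 had 1316 and 1331 FPKM and RpL22-like 0.27 and 0.228 FPKM, RpL37a 2949 and 3406 FPKM and RpL37b 0 and 0.337 FPKM. The related genes RpL24-like and RpL7-like were present with 238 and 259.9 FPKM and 138 and 161 FPKM. RpL24 had 2141 and 2357 FPKM and RpL7 3035 and 3358 FPKM. RpS14a and RpS14b shared their set, with 1574 and 1912 FPKM and 926 and 1155 FPKM; these copies are nearly identical, so the split between them is uncertain.

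Other sets were split too. Gapdh2 held 59.6% of the set with Gapdh1, CycB 50.4% of the set with CycB3, and His3.3A 76.9% of the set with His3.3B. Of the elongation and chaperone sets, Ef1alpha100E had 12.1 and 13.7 FPKM beside Ef1alpha48D, and Hsc70-2 and Hsc70-1 8.36 and 7.97 FPKM and 0.199 and 0.0383 FPKM beside Hsc70-4. In the cap-binding set eIF-4E had 300.0 and 283 FPKM, 4EHP 26.2 and 18 FPKM and eIF4E-6 1.14 and 1.89 FPKM; eIF4E-3 had 0.112 and 0.114 FPKM, and eIF4E-4, eIF4E-5 and eIF4E-7 were listed at 0. Snap24 had 37.2 and 38.5 FPKM and the neuronal Snap25 1.12 and 0 FPKM. The PCNA gene mus209 had 952 and 1043 FPKM and a further PCNA-like gene, CG10262, 1.37 and 1.29 FPKM.

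Among regulators, wor held 95% of the Snail family, with 3.99 and 5.35 FPKM for sna, 1.53 and 1.81 FPKM for esg and 1.04 and 1.7 FPKM for scrt. In turn, ase held 95.7% of the achaete-scute set, whose proneural members l(1)sc, sc and ac had 1.37 and 1.32 FPKM, 1.17 and 0.279 FPKM and 0.345 and 0.21 FPKM. The set of nub and pdm2 was the one with no present member.

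By biotype, 6433 of 13120 protein-coding genes were present, or 49.0%, and 44 of 306 long noncoding RNAs, or 14.4%. Of the 274 genes with a CR name, 40 were present. They nevertheless held 8.83% and 10.8% of the summed FPKM, nearly all of it in CR34335 and CR40469. CR43283, named lncRNA:cherub in current tables, came next with 3089.7 and 1397 FPKM (rank 82), ahead of CR30009 with 275 and 195 FPKM. Of the 21 small RNA genes with a name, snRNA:7SK alone was present, with 8.98 and 14.9 FPKM. The libraries were made from polyA RNA, so no level is drawn from the low values of the others. Across chromosomes the share present ran, over the main arms, from 43.6% on 2L through 48.0% on 3L, 48.4% on 2R, 48.7% on 3R and 52.9% on the X to 69.4% of 85 genes on chromosome 4. The median level of the genes present was 21.6 FPKM on the X, against 22.5, 24.1, 25.3 and 25.7 FPKM on 3L, 3R, 2L and 2R.

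Most genes differed by less than 2-fold between the libraries, though many by more than counting error. Over the 6817 genes present, the log2 ratio of library 1 over library 2, computed with 1 added to each FPKM, had an SD of 0.27 and a median of -0.05, and 40 genes, or 0.587%, differed by over 2-fold. Between 10 and 100 FPKM the SD was 0.23, with 1 gene over 2-fold. As a description across genes, which are not independent replicates, Pearson's r of the log2 values was 0.991. The deposited intervals of the libraries, which cover counting error, did not overlap for 2801 of 6791 genes at 1 FPKM or more, or 41.2%, for 2354 of 5014 genes at 10 FPKM, or 46.9%, and for 714 of 1019 genes at 100 FPKM, or 70.1%.

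The ratio moved with transcript length. Its median was -0.15 for transcripts under 500 nt, -0.10 from 1000 to 2000 nt and 0.13 above 5000 nt, a slope of 0.09 per doubling. Long transcripts were therefore slightly higher in library 1 and short ones in library 2.

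Among genes of at least 10 FPKM, Sgs7 differed most, with 1.34 and 24.9 FPKM, a log2 ratio of -3.47. Sgs7 encodes a glue protein that larval salivary glands secrete, and the other present glue genes, Sgs8 with 0.533 and 13.7 FPKM, Sgs5 with 0.303 and 3.36 FPKM and Sgs3 with 0.179 and 2.13 FPKM, were higher in library 2 as well. Of the 20 genes in the list of glue and Eig71E genes, 4 were present in the mean, 1 in library 1 and 4 in library 2. The part of salivary gland RNA in library 2 was not tested. The other genes with the largest ratios toward library 2 were CG31922, CG42245, CG10512, CG33331, CG42382, CG9666, Tim10, CG31360 and ImpL3. Their ratios ran from -0.98 for CG31922 to -0.73 for ImpL3. Of these 9 genes, 7 overlap another present gene by position, CG10512 and ImpL3 being the exceptions. The share of all present genes with such an overlap was not computed, so nothing is drawn from this count.

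Toward library 1 the largest ratio was that of the noncoding CR43283, with a log2 ratio of 1.14. Others were the RNA-binding protein gene Unr with 52.2 and 25.9 FPKM, a ratio of 0.98, and Haspin, a mitotic kinase gene, plexB, pAbp, dm, CG17838, IFa and Cam. The polyA-binding protein gene pAbp had 1247 and 691 FPKM, the growth regulator Myc gene (dm) 33.1 and 18.1 FPKM and the calmodulin gene Cam 839.7 and 500.4 FPKM. Of the neuroblast markers, cas differed by -0.81, SoxN by 0.45 and grh by 0.39 on the log2 scale, more than the SD of 0.27 over all genes present. The other 7 markers ran from -0.19 for nab through -0.01 for mira to 0.27 for ase.

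**Figure D5:**
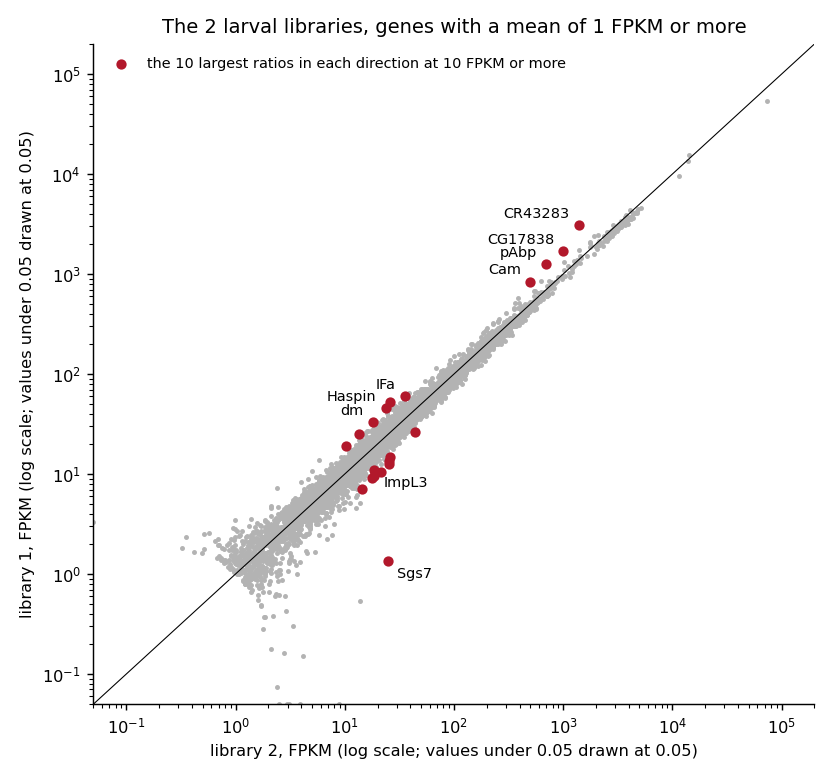
FPKM in library 1 against library 2 for the 6817 genes with a mean of at least 1 FPKM (grey, log axes, line of equality in black), with the 10 largest ratios in each direction at 10 FPKM or more in red. Most genes lie near the line, while Sgs7 has 1.34 FPKM in library 1 and 24.9 FPKM in library 2.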

How the data were processed

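PolyA RNA of sorted larval neuroblasts was analysed in 2 libraries. The authors deposited FPKM per gene with confidence bounds, as Cufflinks gene tables per the file headers. FPKM is a normalized unit and not a count. Cufflinks 1.3.0, TopHat 1.4.1, HTSeq, DESeq 1.8.3 and BWA 0.6.1 are named in the submitters' processing notes, with no role for any of them. The sources used here do not give the genome build, the annotation or the use of strand. Overlapping genes and near-identical copies are therefore uncertain. Positions follow the deposited tables and count from 1.

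From these files, the mean and SD of the 2 libraries, ranks over all 14210 genes, shares of the summed FPKM and log2 ratios with a pseudocount of 1 were computed with pandas 2.3.3 and numpy 2.4.6 in Python 3.11.15 and drawn with matplotlib 3.10.9. The functions were checked on simulated data. No filter was applied beyond the level of 1 FPKM, no groups were compared and nothing was tested. No fold or floor is given for genes at 0, since a zero may not mean absence, as for the genes of the mitochondrial genome. The tables mark 7 and 3 genes, all with values above 0, as failed estimates, which were kept, and 52 genes in each library were flagged for low data.

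Depth was implied by the width of the deposited bounds (2 SDs of a count) in genes with 1 transcript, with lengths from Ensembl release 115 matched by transcript ID, and 91.1% and 91.5% of values under 50 fragments then lay within 0.02 of a whole number. The median bound at 10 FPKM lay 5.38% from the level. Bounds cover counting error only. Current names matched 95.5% of gene IDs.

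Members and lists were chosen with earlier results of these data known. Several list patterns were corrected after their matches were seen: Cp1, Cp190 and Cp110 are not eggshell genes, Cyp1 is a cyclophilin, HisCl1 a channel, qm an enzyme, Acp65Aa a cuticle protein and Mst57Da, Mst57Db and Mst57Dc accessory gland genes. Named genes are the 25 highest, every neuroblast, progenitor, neuron and glia marker, the 4 highest of each transcription factor family and other list, with the lowest where a range is given, the 2 highest of each tissue family, every paralogue and the 10 largest library ratios in each direction, of which 1 gene is not reported here. Counts of a list cover the members found by symbol; a symbol not found was left out. Others are marked as named after their values were seen. No promoter was searched for motifs, since no sequence was used here.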

Additional observations from a re-analysis of the deposited data

How the results depend on the processing

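No paired analysis was possible because nothing was tested and only 1 group was described. The count of 6817 genes present became 7279 at 0.5 FPKM, 5830 at 5 FPKM and 7828 when the lower bound had to exceed 0 in both libraries, and it was 6806 to 6832 in single libraries. The ribosomal protein share of 32.1% became 34.9% without the highest gene and 34.1% over genes of at least 500 nt, both more than 1 SD away, and it was 31.8% to 32.4% in single libraries. The 211 transcription factors present became 233 at 0.5 FPKM and 141 at 5 FPKM, and were 212 to 216 in single libraries. Their median rank, taken over the members present, was 34.9% of all ranked genes and 72.8% of those present, since fewer genes were ranked. The 57 members of tissue families present became 22 at 5 FPKM, 79 at 0.5 FPKM and 45 without those that overlap a present gene, and were 56 in either library. The SD of the library ratio, 0.27, ran from 0.19 with a pseudocount of 5 to 0.37 with one of 0.1, and was 0.26 with the trend on length removed. The 18 sets dominated by 1 member were 17 to 18 in single libraries. The planned share of promoters with each motif was not run. With 2 libraries, the spread of a single gene is poorly known, and values near 1 FPKM rest on few fragments.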
